A study of Mus musculus with 6 samples.

Results

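Described here are 10 genes of the Notch pathway, a cell contact signal, in bulk RNA-sequencing of mouse skin cultures kept in normal or high glucose. They comprise the receptors Notch1, Notch2 and Notch3, the ligands Jag1 and Dll1, and the target genes Hes1, Hey1, Hey2, Heyl and Nrarp. They were chosen by symbol, and each symbol matched 1 of the 55487 Ensembl gene identifiers in the deposited count table. The cultures are labelled endothelial cells (ECs) from the skin of C57BL/6 mice, isolated with CD31 beads from 4 to 6 animals aged 2 to 3 months and used at low passage. Of the 6 samples, 3 were in 5 mmol/L glucose (normal glucose, the control) and 3 in 20 mmol/L glucose (high glucose), both for 48 hours. The authors' figure legend gives n = 3 per group of mice. The labels do not say whether replicates came from separate isolations, so P values measure only the spread between these samples, which may be technical.

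Notch receptors are membrane proteins that are activated by Jagged or Delta-like ligands on a neighbouring cell. Ligand binding lets ADAM proteases and then the γ-secretase complex cut the receptor, and the freed intracellular part joins the DNA-binding protein RBPJ and Mastermind coactivators in the nucleus. The classic targets of that complex are the HES and HEY transcriptional repressors and NRARP, an inhibitor that limits the signal. In blood vessels the pathway is known for arterial identity and for holding back sprouting, and NOTCH3 is best known from the mural cells that surround vessels.

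Library totals ranged from 120192466 to 146881356 counts. Markers of the labelled cell type were low. Of 14 endothelial markers, 8 had under 20 counts in every sample. Sox17 had 0 counts throughout, and Tie1, Cldn5 and Robo4 did not exceed 4 counts in any sample. Pecam1, the gene of CD31, had 9 to 19 counts. Others were detected in every sample, with 1113 to 1464 counts for Egfl7, 576 to 777 for Kdr, 151 to 302 for Tek, 91 to 242 for Cdh5 and 73 to 144 for Vwf. The 14 markers summed to 19.8 to 20.9 CPM (counts with each library scaled to a common size by TMM) in normal glucose and 18.7 to 19.3 in high glucose. Of the 8 tested, 2 were lower and 2 higher. The summed level of 10 fibroblast markers was 38301 to 41464 CPM in normal glucose and 70636 to 75591 in high glucose, and 9 of the 10 were higher and 1 lower by the test described next. For 9 mural cell markers the sums were 1174 to 1257 and 1064 to 1133 CPM, with 4 lower and 2 higher among the 8 tested. The 4 macrophage markers summed to 6.63 to 7.71 and 4.11 to 4.84 CPM. Of these, Csf1r (364 to 795 counts per sample) and Cd68 (114 to 212) were tested and both were lower. Adgre1 was at 0 in 5 of the 6 samples and at 3 counts in the other one. The 4 keratinocyte markers summed to at most 2.97 CPM. Of the 2 tested, Krt5 was higher (2 counts in each normal glucose sample, 12 to 23 in high glucose) and Krt10 did not pass. Krt14 and Epcam were not tested. Krt14 had counts of 2, 0 and 0 under normal and of 35, 9 and 31 under high glucose, and Epcam had 12, 4 and 0 against 0, 2 and 7. By the same test 14.5% of all tested genes were lower and 16.9% higher. The part of these cell types in the changes described here was not tested, and in bulk samples fewer cells of a type and less RNA per cell cannot be told apart.

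Counts of high and normal glucose were compared with edgeR's quasi-likelihood test over all 19015 genes that passed a filter on low counts, and a gene was called at a Benjamini-Hochberg adjusted P value under 0.05. Of the 10 Notch genes, 9 passed the filter and Nrarp did not. In high glucose the target genes Hes1 and Heyl were lower, by 2.43-fold and 2.17-fold, and the receptors Notch1 and Notch2 and the ligand Jag1 were higher, by 1.39-fold, 1.42-fold and 1.23-fold. Hey1, Hey2, Notch3 and Dll1 did not pass the threshold. These 2 lower and 3 higher genes stand against 14.5% of all tested genes called lower and 16.9% called higher, or 31.4% in either direction. When the TMM factors were left out, Hey1 passed as a further lower gene and Jag1 no longer passed.

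**Figure D1:**
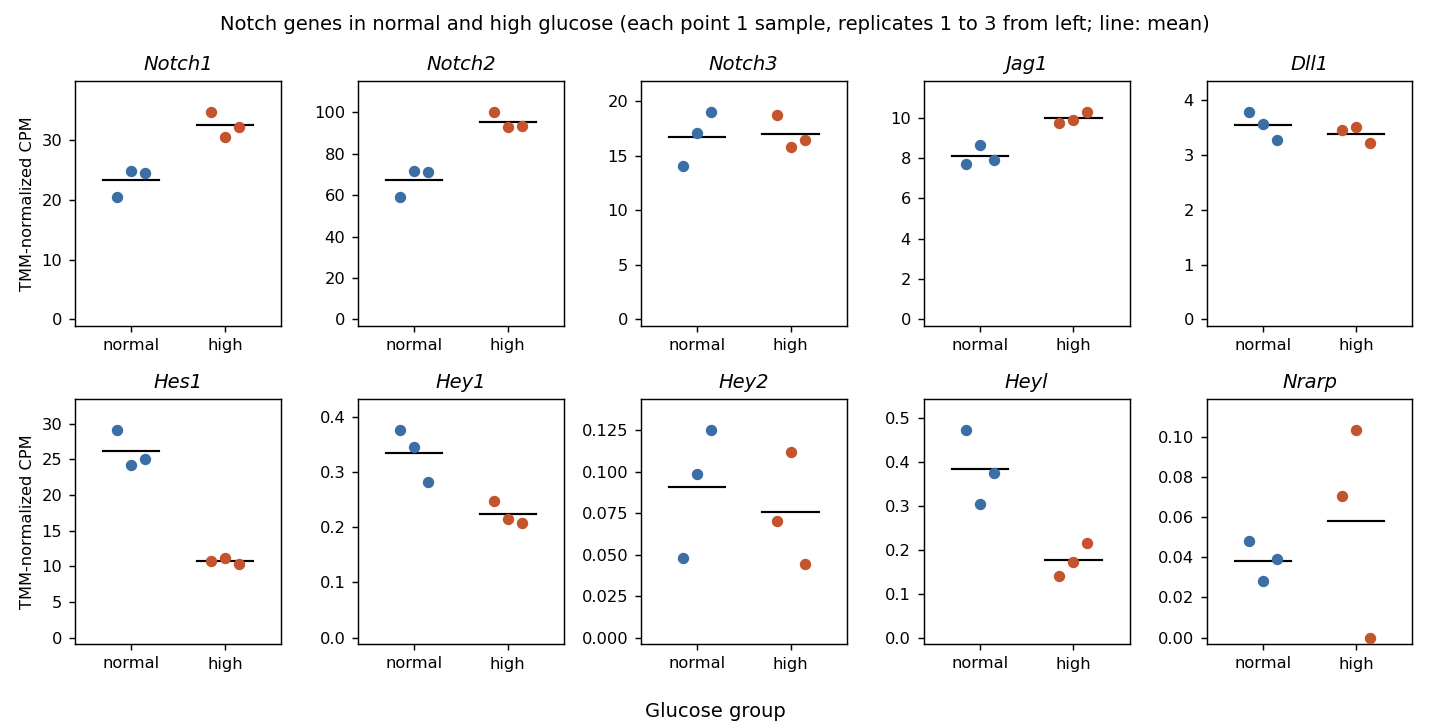
TMM-normalized CPM (vertical axis, a linear scale for each gene) of the 10 Notch genes in normal glucose (blue) and high glucose (orange), with 1 point per sample and a line at the mean of 3 samples. The groups do not overlap for Hes1, Hey1 and Heyl, which lie lower in high glucose, and for Notch1, Notch2 and Jag1, which lie higher.

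Per kilobase of exon, the scale on which different genes can be compared, Hes1 had the highest level of the 10 genes in normal glucose and Notch2 in high glucose. Hes1 went from 12.8 ± 1.27 to 5.28 ± 0.174 CPM per kilobase (SD, n = 3), and Notch2 from 6.23 ± 0.654 to 8.85 ± 0.373. Below them in normal glucose came Notch3 (2.07 ± 0.307 CPM per kilobase), Notch1 (1.64 ± 0.169) and Jag1 (1.39 ± 0.0847), and the ranges of Notch3 and Notch1 and those of Notch1 and Jag1 overlapped. In high glucose Notch1 (2.28 ± 0.145) and Notch3 (2.10 ± 0.193) overlapped, while Jag1 (1.71 ± 0.0477) lay below both. Dll1 followed in both groups, at 0.839 ± 0.0611 and 0.805 ± 0.0364 CPM per kilobase. Hey1, Heyl, Hey2 and Nrarp were all at or under 0.102 CPM per kilobase on average. In normal glucose the ranges of Hey1 and Heyl overlapped and so did those of Hey2 and Nrarp. In high glucose Heyl overlapped with Nrarp, and Nrarp with Hey2. Lengths were those of all annotated exons merged, which for Notch1 come to 14232 bp against 9488 bp in its longest transcript, so levels per kilobase depend on the annotation. With the longest transcripts, Notch1 lay above Notch3 on average in normal glucose too.

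Hes1 encodes a basic helix-loop-helix repressor that keeps progenitor cells from differentiating. Its position in GRCm38 is chromosome 16, plus strand, 30064384 to 30067796 (ENSMUSG00000022528) and it shares no exonic position with another annotated gene. Hes1 had 29.1, 24.3 and 25.1 CPM in replicates 1, 2 and 3 of normal glucose and 10.7, 11.1 and 10.4 CPM in high glucose. Behind these values stood 1291 to 3642 counts per sample. Every high glucose sample lay below every normal glucose sample, and the samples of high glucose were closer to one another than those of normal glucose. The log2 fold change was -1.28 (standard error 0.0763, 95% interval -1.45 to -1.11, adjusted P = 1.0e-06, edgeR), which is a change of -58.9%.

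The HEY genes were far less abundant. Heyl, on chromosome 4 from 123233556 to 123249875, encodes a HES-related repressor. It had 0.471, 0.303 and 0.375 CPM in normal glucose and 0.141, 0.172 and 0.215 CPM in high glucose, from 20 to 59 counts per sample. The groups did not overlap, and the log2 fold change was -1.11 (standard error 0.267, adjusted P = 0.00975, edgeR). Its 95% interval ran from -1.71 to -0.52, wider than that of Hes1.

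Hey1 and Hey2 encode the HEY repressors that are best known from arteries and the heart. Hey1, on chromosome 3 from 8663359 to 8667256, had 0.375, 0.345 and 0.281 CPM in normal glucose and 0.247, 0.215 and 0.208 CPM in high glucose. Its groups did not overlap either, but the log2 fold change of -0.58 (95% interval -1.08 to -0.072) did not pass the threshold (adjusted P = 0.0791, edgeR). For Hey2, on chromosome 10 from 30832359 to 30842801, the counts were 6, 14 and 16 under normal and 10, 13 and 6 under high glucose. These overlapped, and the log2 fold change was -0.29 (95% interval -1.37 to 0.79, adjusted P = 0.697, edgeR), so a change by 2-fold in the lower direction lies inside the interval. Among tested genes, 21.3% had every high glucose sample below every normal glucose sample, as Hes1, Heyl and Hey1 did.

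Nrarp, on chromosome 2 from 25180758 to 25183339, was close to undetected, with counts of 6, 4 and 5 under normal and of 10, 12 and 0 under high glucose. It failed the filter on low counts and was not tested. The high glucose replicates lay on both sides of the control samples, and the sample with 0 counts allows a level of up to 0.0223 CPM (3 counts, counting error only). No difference in Nrarp was detectable at this depth.

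Notch1 and Notch2 are the broadly expressed receptors, and NOTCH1 is the one best known from endothelium. Notch1, on the minus strand of chromosome 2 from 26457903 to 26516663, had 20.5, 24.9 and 24.5 CPM in normal glucose and 34.7, 30.6 and 32.2 CPM in high glucose. Notch2, on the plus strand of chromosome 3 from 98013527 to 98150361, had 59.1, 71.5 and 71.0 CPM and 100.04, 92.9 and 93.2 CPM. In both, all high glucose samples lay above all normal glucose samples, an arrangement that 25.1% of tested genes showed, and replicate 1 was the lowest normal glucose sample.

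The log2 fold change of Notch1 was 0.48 (standard error 0.0801, 95% interval 0.30 to 0.66, adjusted P = 0.00123, edgeR). That of Notch2 was 0.51 (standard error 0.0759, 95% interval 0.34 to 0.67, adjusted P = 6.1e-04). After removal of the trends that each library showed with GC content and gene length, the values were 0.29 and 0.31 and both passed the threshold (adjusted P = 4.9e-04 and 1.6e-04, edgeR). Notch1 shares 1068 exonic bp with 0610009E02Rik and 414 bp with Gm13568 on the opposite strand, and Notch2 shares 541 bp with Gm42820 on its own strand. Whether reads were counted by strand is not stated, and these 3 overlapping genes had at most 83, 1 and 36 counts in any sample.

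Notch3, on chromosome 17 from 32120820 to 32166852, had 14.1, 17.1 and 19.0 CPM in normal glucose and 18.8, 15.8 and 16.4 CPM in high glucose. Its groups overlapped, and the log2 fold change of 0.022 (95% interval -0.21 to 0.26, adjusted P = 0.898, edgeR) had an interval that left out the estimates for Notch1 and Notch2. The sign of this value changed with the scaling, to -0.092 with library size alone. Notch3 shares 488 exonic bp with Gm17276 on the opposite strand, which had 6 to 12 counts per sample in normal glucose and 20 to 38 in high glucose.

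**Figure D2:**
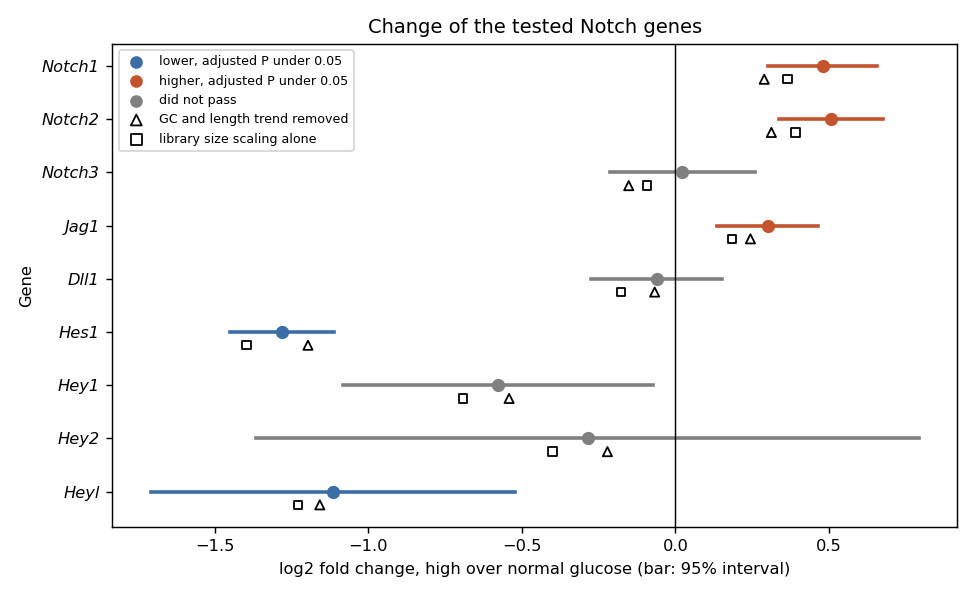
Log2 fold change of high over normal glucose (horizontal axis) for the 9 tested Notch genes, with filled points and bars for the estimate and its 95% interval, triangles for the value with GC and length trends removed and squares for library size scaling. Hes1 and Heyl lie below -1 in each of these settings, whereas Notch1 and Notch2 lie above 0 and move from 0.48 and 0.51 to 0.29 and 0.31 at the triangles.

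Jag1 encodes a Jagged ligand of the Notch receptors. Located on chromosome 2 from 137081456 to 137116644, it had 7.71, 8.64 and 7.90 CPM in normal glucose and 9.74, 9.86 and 10.3 CPM in high glucose. The groups did not overlap, and the log2 fold change was 0.30 (standard error 0.0746, 95% interval 0.13 to 0.47, adjusted P = 0.0118, edgeR). The call depended on single libraries and on the scaling. Without normal glucose replicate 3 the adjusted P value was 0.0564 (log2 fold change 0.27), without high glucose replicate 3 it was 0.0756 (0.26), and with library size scaling it was 0.0844 (0.18) in edgeR.

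Dll1 encodes a Delta-like ligand and lies on chromosome 17 from 15367354 to 15376872. It had 3.79, 3.57 and 3.27 CPM in normal glucose and 3.45, 3.51 and 3.22 CPM in high glucose. The groups overlapped, and the log2 fold change was -0.061 (95% interval -0.28 to 0.15, adjusted P = 0.670, edgeR). Dll1 shares 867 exonic bp with A930024N18Rik on the opposite strand.

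The share of each receptor within a sample does not depend on how libraries are scaled. Among transcripts of Notch1 to Notch4, as counts per kilobase of exon, Notch2 made up 60.5%, 60.9% and 59.3% in the normal glucose samples, against 64.8%, 66.5% and 65.6% under high glucose. Notch1 went from 15.8% ± 0.271 to 16.9% ± 0.305 (SD, n = 3). Notch3 took 19.2%, 19.4% and 21.2% in the normal glucose samples, against 16.2%, 15.1% and 15.4% under high glucose, and Notch4 went from 4.02% ± 0.370 to 1.89% ± 0.132. For each of these 4 shares the groups did not overlap, with a difference of 5.41 percentage points for Notch2 and -4.39 for Notch3 (exact permutation test, two-sided, P = 0.1, which is the least that 3 samples against 3 can give, and 0.133 after Benjamini-Hochberg adjustment over 8 shares). With these sample numbers this test cannot reach a P value of 0.05. With the longest transcript in place of merged exons, Notch1 made up 21.5% and 22.9% of receptor transcripts in normal and high glucose, and Notch2 55.9% and 60.8%. Notch3 then made up 18.2% and 14.2%, below Notch1 in both groups.

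**Figure D3:**
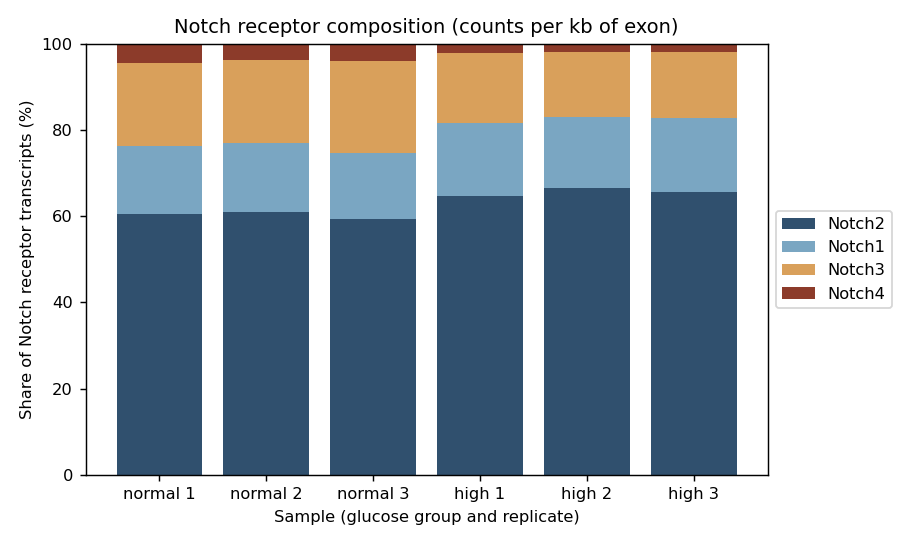
Share of each Notch receptor (vertical axis, percent of the summed counts per kilobase of exon) in each of the 6 samples. Notch2 forms 59.3% to 60.9% of receptor transcripts in normal glucose and 64.8% to 66.5% in high glucose, while the shares of Notch3 and Notch4 are smaller in every high glucose sample.

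Among the transcripts of Hes1, Hey1, Hey2 and Heyl, Hes1 alone made up 98.5% ± 0.0264 and 97.8% ± 0.0121 in the normal and high glucose samples (SD, n = 3). Hey1 went from 0.786% ± 0.0930 to 1.27% ± 0.118, with no overlap (two-sided exact permutation test, P = 0.1, adjusted 0.133). This larger share is not a gain of Hey1, whose log2 fold change was -0.58, against -1.28 for Hes1. The shares of Heyl overlapped between the groups, at 0.571% ± 0.0741 and 0.640% ± 0.151 (exact permutation test, P = 0.6, adjusted 0.6), and the sign of this difference turned without high glucose replicate 3. Hey2 differed by 0.147 percentage points (exact permutation test, P = 0.2, adjusted 0.229).

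RefSeq's promoter table for GRCm38.p6 held windows for 7 of the 10 genes (Hey2, Nrarp, Notch1, Notch2, Notch3, Jag1 and Dll1) and none for Hes1, Hey1 and Heyl. Shown are the 3 genes that rose, as members that moved in the same direction, and Hey2 as the 1 window with the letters of an RBPJ motif. Each sequence is the stretch within the 250 bases before the RefSeq start that lies in no annotated exon, 5′ to 3′ on the gene's strand. Capitals mark motif letters searched on both strands: GTGGGAA (RBPJ), CACNAG (N-box, a motif of HES proteins) and CACGTG (E-box). The RefSeq start of Notch1 and its whole printed stretch lie inside the gene as GENCODE annotates it. The stretches of Notch2, Jag1 and Hey2 end 12, 125 and 19 bases before the RefSeq start, where the annotated gene begins. Their RefSeq starts thus also lie inside the annotated genes. Coordinates are chr2:26503825-26504072 (minus strand) for Notch1, chr3:98013288-98013526 (plus strand) for Notch2, chr2:137116645-137116770 (minus strand) for Jag1 and chr10:30842802-30843033 (minus strand) for Hey2.
Notch1: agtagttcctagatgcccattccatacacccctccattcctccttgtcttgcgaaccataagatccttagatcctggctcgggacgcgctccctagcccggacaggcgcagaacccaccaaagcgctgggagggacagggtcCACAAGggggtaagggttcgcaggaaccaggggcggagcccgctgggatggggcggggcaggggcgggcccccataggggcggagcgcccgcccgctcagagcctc
Notch2: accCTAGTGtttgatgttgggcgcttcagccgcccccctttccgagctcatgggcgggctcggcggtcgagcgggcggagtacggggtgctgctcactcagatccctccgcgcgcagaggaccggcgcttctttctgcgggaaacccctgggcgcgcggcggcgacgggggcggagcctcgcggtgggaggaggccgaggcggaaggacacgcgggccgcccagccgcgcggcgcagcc
Jag1: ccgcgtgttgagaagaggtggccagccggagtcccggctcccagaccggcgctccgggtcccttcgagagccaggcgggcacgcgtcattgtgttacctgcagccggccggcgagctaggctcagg
Hey2: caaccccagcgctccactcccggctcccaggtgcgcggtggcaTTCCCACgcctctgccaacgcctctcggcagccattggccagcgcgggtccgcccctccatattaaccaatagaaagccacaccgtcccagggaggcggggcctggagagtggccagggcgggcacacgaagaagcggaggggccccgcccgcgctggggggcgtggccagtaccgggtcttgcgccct
Notch1 and Notch2 each held 1 N-box, which begin 108 and 247 bases before the start, and Notch3 held 2. Nrarp held 2 N-boxes, 179 and 79 bases before the start, and an E-box at 108 bases. No motif searched was found in the 250 bases before the start of Jag1 or in those before the start of Dll1. The RBPJ letters in Hey2 begin 207 bases before the start and lie on the opposite strand. Of all 32851 promoter windows, 36.7% held an N-box, 5.42% the RBPJ letters and 6.02% an E-box in the same 250 bases. The matches are a description of the letters and not of binding.

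A list of 44 other Notch pathway genes, chosen by role, was examined in the same fit. Of these, 39 passed the filter on low counts, and 4 were lower, 12 were higher and 23 were not called, beside 14.5% lower and 16.9% higher among all tested genes. Without TMM factors the lower and higher counts were 8 and 4, beside 4884 and 1819 of the 19015 tested genes. The same shares of all genes stand behind the counts by role that follow. The higher count was 7 without the filter, beside 2334 of 31922 tested genes. It was 6 without high glucose replicate 1 (beside 2010 of 19367) and 6 without high glucose replicate 3 (beside 1988 of 19396). The median log2 fold change of the 39 genes was 0.072, against 0.0062 over all tested genes. Of the 16 called genes, 7 were called in each of the 16 alternative fits.

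Notch4, the receptor known for its restriction to endothelium, had 3.19, 3.19 and 3.63 CPM in normal glucose and 2.36, 1.93 and 1.91 CPM in high glucose. All high glucose samples were below the controls, and the log2 fold change was -0.69 (standard error 0.118, adjusted P = 0.00141, edgeR). Its direction is opposite to that of Notch1 and Notch2. Cdh5, the gene of the endothelial cadherin, was also lower (log2 fold change -1.03), whereas Tek, the gene of an endothelial receptor kinase, was higher (0.66).

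Of the 5 other ligands or ligand-like genes, 1 was called. Dlk2, which encodes a noncanonical ligand without the domain that activates the receptors, had 4.01, 3.25 and 3.68 CPM in normal glucose and 1.67, 1.52 and 1.68 CPM in high glucose. The groups did not overlap (log2 fold change -1.16, adjusted P = 2.9e-05, edgeR). It shares 51 exonic bp with Abcc10 on the opposite strand. The arterial ligand gene Dll4 had counts of 13, 2 and 6 under normal and of 15, 8 and 11 under high glucose, and Jag2 had 34, 42 and 42 against 37, 29 and 27. Neither passed the threshold (log2 fold changes 0.67 and -0.33), and their 95% intervals ran from -0.62 to 1.97 and from -0.84 to 0.17.

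Rbpj, the gene of the DNA-binding partner of the cut receptor, was abundant and did not pass the threshold, at 122 ± 9.60 CPM and 128 ± 1.72 CPM under normal and high glucose (SD, n = 3; log2 fold change 0.077, 95% interval -0.061 to 0.22). Among the 7 genes of the nuclear complex and its corepressors, 5 were higher and 0 lower in edgeR (at an unadjusted P value under 0.05 and in DESeq2 the lower count was also 0, whereas Maml3 was called lower without TMM factors, at -0.23 on the log2 scale, and with GC and length trends removed, at -0.26). Those higher included Ep300, which encodes a histone acetyltransferase that serves as coactivator, Spen, which encodes a corepressor bound by RBPJ, and, named after their values were seen, Maml1 and Maml2. Ep300 had 40.9, 62.3 and 60.1 CPM in normal glucose and 83.9, 79.5 and 84.8 CPM in high glucose. Its estimate on the log2 scale was 0.60 (adjusted P = 0.00524, edgeR). Spen had 53.1, 83.3 and 80.3 CPM against 107 CPM in each high glucose sample (log2 fold change 0.56, adjusted P = 0.00982).

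Replicate 1 was the lowest normal glucose sample for both genes, and without it Ep300 had a log2 fold change of 0.42 and Spen one of 0.37. The Spen value was 0.34 with GC and length trends removed. Maml1 and Maml2, the Mastermind coactivators, had log2 fold changes of 0.39 and 0.30. Maml2 was not called without TMM factors. Spen shares 41 exonic bp with Zbtb17 on the opposite strand, and Ep300 shares 54 bp with Gm23880 on its own strand.

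Among 12 genes of ubiquitin ligases and receptor trafficking, 2 were lower and 5 higher. Neurl1b, which encodes a ligase that acts on the ligands, had 1.35, 1.29 and 1.33 CPM in normal glucose and 0.472, 0.353 and 0.467 CPM in high glucose. This was the largest fall among the 39 tested genes of the list (log2 fold change -1.61, standard error 0.155, adjusted P = 2.9e-05, edgeR). Its relative Neurl1a had a log2 fold change of -0.41, and the higher genes Dtx4, Mib2, Mib1, Numbl and Dtx2, also named after their values were seen, had log2 fold changes between 0.16 and 0.47. Of these, Mib1, Numbl and Dtx2 were not called in at least 10 of the 16 alternative fits, and Mib2 was not called in 6. Neurl1a was not called in 3, namely without normal glucose replicate 3, high glucose replicate 2 or high glucose replicate 3 (adjusted P up to 0.064, edgeR).

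Of 9 cleavage genes, 2 were higher, namely Psen2 (log2 fold change 0.26), which encodes a catalytic subunit of γ-secretase, and Furin (0.22), which encodes the protease that processes the receptor precursor. Neither of the pair was called without TMM factors. Furin was also not called without high glucose replicate 1, 2 or 3, nor with GC and length trends removed together with a replicate block. Its adjusted P value was at most 0.148 over all alternatives. No cleavage gene was called lower in the fit described above. Psenen, named after its values were seen, had every high glucose sample below every normal glucose sample (log2 fold change -0.16, adjusted P = 0.0831, edgeR). It was called lower without TMM factors (-0.28), with upper quartile scaling (-0.20) and in DESeq2 (-0.17). Without TMM factors Ncstn was also called lower (-0.15). Of 5 genes that add or extend sugars on the receptors, 4 were tested and none was called by edgeR (at an unadjusted P value under 0.05 and in DESeq2 also 0, whereas Pofut1 was called lower without TMM factors, at -0.17 on the log2 scale). Lfng, the gene of the Lunatic fringe enzyme, had 3.04 ± 0.376 CPM and 3.15 ± 0.246 CPM under normal and high glucose (SD, n = 3; log2 fold change 0.049). Of the 5 other HES genes, Hes2, Hes3 and Hes5 had at most 4 counts in any sample, and Hes6 and Hes7 did not pass the threshold.

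**Figure D4:**
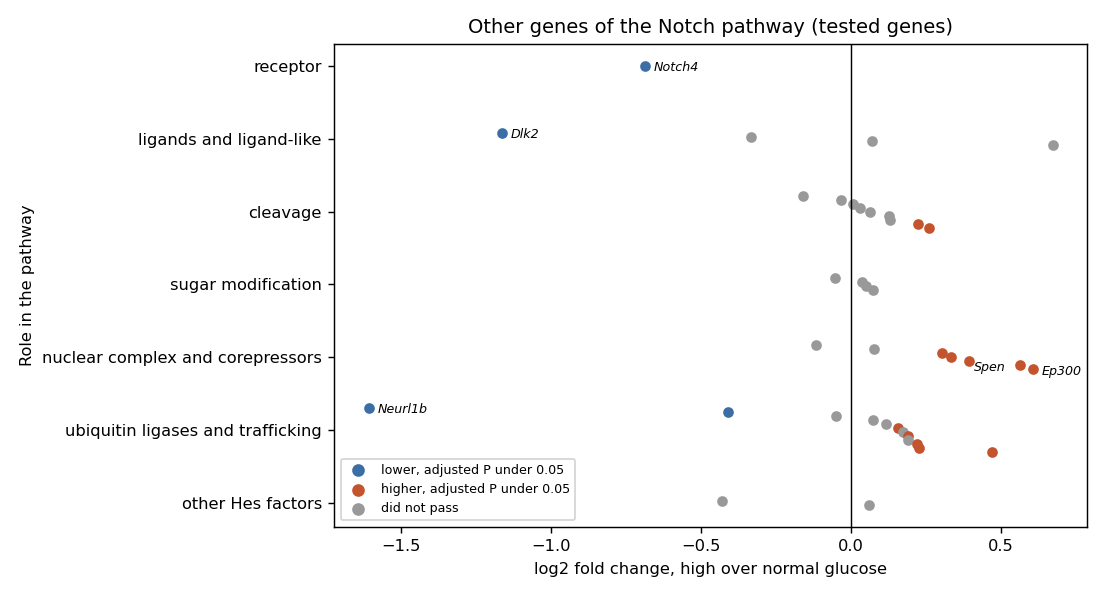
Log2 fold change of high over normal glucose (horizontal axis) for the 39 tested genes of the list of other Notch pathway genes, in rows by role, with blue points for lower genes, orange for higher and grey for genes that did not pass the threshold. Names mark called genes with an absolute log2 fold change of at least 0.5, of which Notch4, Dlk2 and Neurl1b lie to the left and Ep300 and Spen to the right.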

How the data were processed

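Poly(A) RNA of 6 mouse skin cultures (3 per glucose group) was sequenced in bulk. The authors deposited counts of reads per gene without normalization, made by trimming (Trimmomatic), alignment to GRCm38 (HISAT2) and gene-level counting (StringTie). Tool versions and the annotation release are not given in the sources used here. The authors' methods and the labels name different sequencing platforms and RNA isolation methods.

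Groups and replicate numbers came from the labels. Genes were kept by filterByExpr of edgeR 4.0.16 (R 4.3.3) with a minimum count of 10 and a minimum total of 15. After TMM scaling, high was compared with normal glucose by edgeR's quasi-likelihood F-test, with Benjamini-Hochberg adjustment across the genes kept. Standard errors came from the test statistic. Total counts per sample were between 120192466 and 146881356, and the common biological coefficient of variation was 8.44%. Replicates of a group differed by more than sampling noise (chi-square over degrees of freedom 9.03 or more). The 95% intervals of fold changes include the spread between replicates, whereas the limit given for a count of 0 covers counting error only. Symbols, exon lengths and positions came from GENCODE for GRCm38.

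The Notch genes and gene lists were chosen with earlier results of these data known. All 10 members were named. Of the list of 44 other genes, those called with an absolute log2 fold change of at least 0.5 were named, with Notch4, Dll4, Jag2, Rbpj and Lfng. The values of 1 called gene of that list are not reported here. Alternatives were other normalizations, no filter, DESeq2 1.42.0, robust fitting, halved counts, stricter thresholds, each sample left out, removal of GC and length trends with mgcv 1.9.3, the replicate block, and for shares other transcript lengths. The longest transcript was added after the data had been seen.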

Additional observations from a re-analysis of the deposited data

How the results depend on the processing

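In the alternative fits (16, of which Hey2 passed the filter in 15), the log2 fold changes of Hes1 (-1.40 to -1.20), Heyl (-1.31 to -0.96), Notch1 (0.29 to 0.52), Notch2 (0.31 to 0.54), Hey2 (-0.66 to -0.0076) and Dll1 (-0.18 to -0.029) neither changed sign nor crossed the threshold. Their sizes did move, those of Notch1 and Notch2 most with GC and length trends removed and that of Hey2 most when 1 sample was left out. Hey1 passed the threshold with library size scaling (log2 fold change -0.69, edgeR adjusted p = 0.0383; 0.0383 to 0.267 over its alternatives). That scaling moved the median over all tested genes from 0.0062 to -0.11 and gave 4884 lower and 1819 higher genes in place of 2757 and 3212. The upper quartile gave 3407 lower and 2622 higher. Jag1 did not pass it with library size scaling (0.18) and ranged from 0.25 to 0.34 when 1 sample was left out. Notch3 was -0.020 with the upper quartile, -0.092 with library size scaling, -0.15 with GC and length trends removed without or with the replicate block, and -0.10 to 0.11 without 1 sample.

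The count of higher Notch genes was 0 with a log2 fold change of at least 1 and 2 to 3 without 1 sample. For the list of 44 genes, lower counts were 8 with library size scaling, 2 with a log2 fold change of at least 1 and 3 to 5 without 1 sample. Higher counts were 4 with library size scaling, 7 without the filter and 6 at an adjusted p under 0.01. They were 0 at a log2 fold change of at least 1 and 6 to 10 without 1 sample, the 6 arising without high glucose replicate 1 or 3. Higher calls over all tested genes were also fewer than 3212 of 19015 in such fits. They were 2334 of 31922 without the filter, 2010 of 19367 without high glucose replicate 1 and 1988 of 19396 without high glucose replicate 3. Without length scaling, the share differences were 4.17 (Notch2), -1.63 (Notch4), -1.23 (Hes1), 0.749 (Hey1) and 0.322 (Hey2) percentage points, and with the longest transcript 1.45 (Notch1). For Heyl they ranged from -0.013 to 0.134 without 1 sample. What caused these differences was not tested.

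Same-numbered samples of the 2 groups did not deviate together across all genes (correlations -0.025, 0.0038 and 0.013). Such correlations can miss a shared origin with a small effect, and the labels do not say whether equal numbers pair samples. With the replicate block, 2 Notch genes were lower and 3 higher, and of the other 44 genes 4 were lower and 10 higher, Numbl and Dtx2 not being called. Low counts limit Hey2, Nrarp and Dll4, and also Heyl (20 to 59 counts per sample) and Hey1 (25 to 49). The adjusted p of Heyl rose to 0.0424 (edgeR) without high glucose replicate 1.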
